A study of Mus musculus with 2 samples.

Results

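The enzymes described here make or convert asparagine, proline, cysteine, the branched-chain amino acids and the alanine, aspartate and glutamine that carry their nitrogen. They were chosen by name as 10 genes, Asns, Pycr1, Aldh18a1, Bcat1, Bcat2, Cth, Cbs, Gpt2, Got1 and Glul, through every probe set whose annotation held that gene symbol alone. The rule found 21 probe sets for 9 of the 10 genes, out of 45101 probe sets and 18193 genes. Pycr1 had no probe set named for it alone and its expression is not analysed here. The members were named without using their values, but with earlier results of these arrays known.

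The arrays compare MOS-J cells carrying human DKK1 with MOS-J cells carrying a control vector. The MOS-J line derives from a mouse bone tumour, an osteosarcoma, and the DKK1 protein is secreted and antagonises canonical Wnt signalling. The labels describe both vectors as lentiviral, and the protocol also describes a plasmid route, drug-selected lines and a later fluorescent marker. The sources used here do not say which of these the profiled cells went through, nor whether each line is 1 clone. Each group had 1 array made from 500 ng of total RNA, so no value has a replicate error, no test was possible, and each difference compares these 2 arrays alone. Signals are MAS5 intensities on a linear scale, scaled by array. Differences are log2(signal + 16.6) of DKK1 cells minus control cells. Fold sizes printed for probe sets and genes are ratios of signals without that added 16.6, so they need not match the log2 difference beside them. The 2-fold threshold is applied to the differences. Probe sets with an average signal of at least 71.3 over both arrays are called measured, and a gene was called higher or lower at 2-fold or more with all its measured probe sets of 1 sign.

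Asparagine synthetase, the product of Asns, amidates aspartate with nitrogen from glutamine. Aldh18a1 and Pycr1 encode the first and last steps from glutamate to proline, Cbs and Cth the steps from homocysteine to cysteine, and Bcat1 and Bcat2 the cytosolic and mitochondrial enzymes that move nitrogen between branched-chain amino acids and glutamate. Several of these genes, Asns above all, are known targets of the transcription factor ATF4, which cells make when amino acids run short or the endoplasmic reticulum is stressed, and which binds a C/EBP-ATF response element in many of its target genes.

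That element was looked for as TGATGNAA on both strands in the 250 bases before each RefSeq transcription start (GRCm38.p6). The promoter table held 9 of the 10 genes, and Cth was not matched. The letters were found before Asns, Got1 and Pycr1, which is 3 of 9 genes, against 3.91% of all 27025 genes in the table. Known ATF4 targets, Asns above all, are among the 9, so this share is no independent support, and Pycr1 has no expression value here. The 3 matches are shown for their letters and surroundings, read along the strand that carries the motif, with the motif in capitals. They lie at chr6:7693215-7693242 (Asns), chr19:43524690-43524717 (Got1) and chr11:120643834-120643861 (Pycr1), all 3 genes being on the minus strand of the chromosome.
Asns: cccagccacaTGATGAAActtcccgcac
Got1: gaggcttgtaTGATGCAAccaatgcaat
Pycr1: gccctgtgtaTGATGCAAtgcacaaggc
Got1 and Pycr1 share the core with C at the free position and Asns has A there. Relative to its gene the motif of Asns begins 23 bases and that of Pycr1 103 bases before the start on the coding strand, and that of Got1 lies from 102 to 95 bases before the start on the opposite strand.

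The whole 250 bases before the starts of Asns (chr6:7693210-7693459, minus strand) and Got1 (chr19:43524606-43524855, minus strand) follow, 5′ to 3′ along the gene with the motif in capitals, because these are the genes of lower signal in which it was found.
Asns: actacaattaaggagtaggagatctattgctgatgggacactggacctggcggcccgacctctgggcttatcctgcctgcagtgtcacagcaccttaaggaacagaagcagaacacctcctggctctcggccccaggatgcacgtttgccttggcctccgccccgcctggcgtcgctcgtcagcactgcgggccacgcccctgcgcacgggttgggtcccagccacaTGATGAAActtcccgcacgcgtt
Got1: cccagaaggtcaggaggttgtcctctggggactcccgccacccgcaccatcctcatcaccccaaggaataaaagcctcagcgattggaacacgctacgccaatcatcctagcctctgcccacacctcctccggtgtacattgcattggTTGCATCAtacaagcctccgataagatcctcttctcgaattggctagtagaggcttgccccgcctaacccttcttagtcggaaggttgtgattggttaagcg
A second motif, the antioxidant response element searched as TGACNNNGC, was found in the Asns promoter alone among the 9 genes, from 172 to 164 bases before the start and so apart from the first, against 11.5% of all genes. A match describes letters and does not show binding. Bcat1, Gpt2 and Aldh18a1 had no match of TGATGNAA in these windows, which says nothing of sites elsewhere.

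Of the 10 genes, 6 were called lower in the DKK1 cells (Asns, Aldh18a1, Bcat1, Cth, Gpt2 and Got1), 0 were called higher, Glul was measured and not called, Bcat2 and Cbs were dim, and Pycr1 had no probe set. Among all 11058 measured genes 6.91% were called lower and 11.7% higher. The median difference of the 7 measured enzymes was −2.15, beside 0.10 for all measured genes. Of the 21 probe sets 18 were measured, with 16 below 0 and 2 above, where 44.9% of all measured probe sets with 1 symbol were below 0. At least 2-fold lower signals were found for 15 of the 18, against 7.51% of all 19360 measured probe sets with 1 symbol. Of the 18, 17 had both signals at or above 71.3. The remaining one, of Bcat1, passed through the control array alone and so had to differ.

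**Figure D1:**
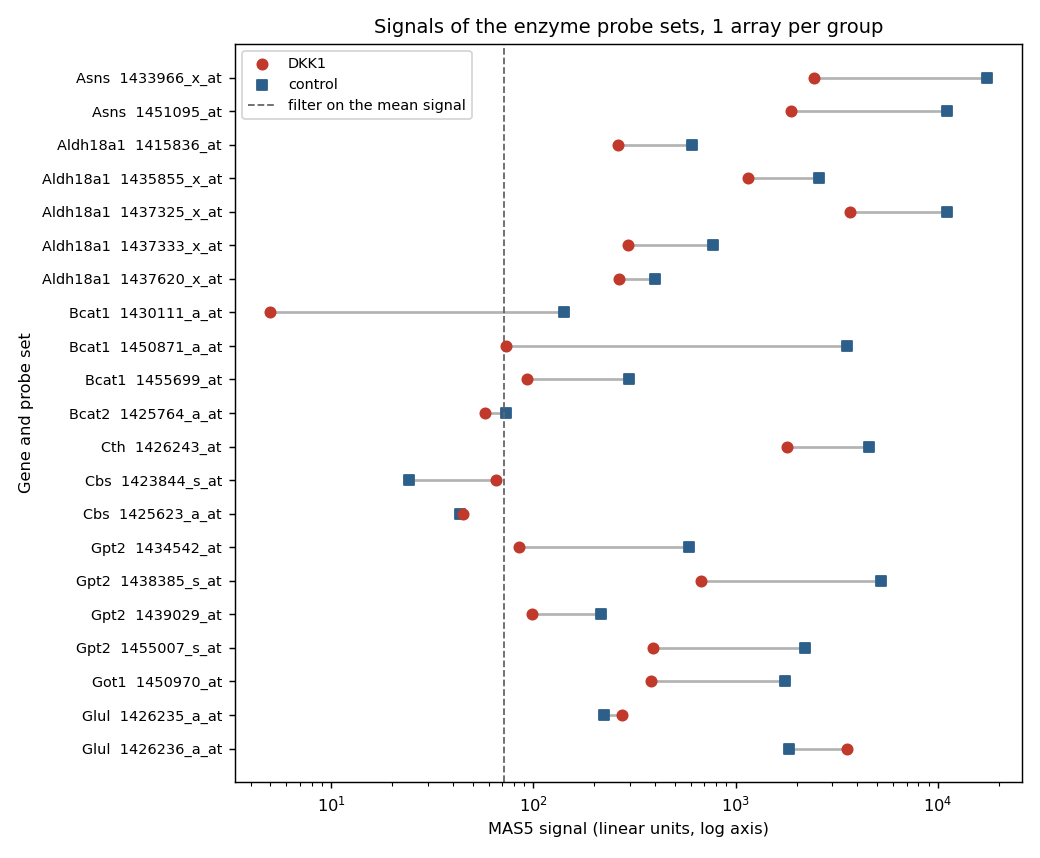
MAS5 signals (log axis) of the 21 probe sets, with the DKK1 array as red circles, the control array as blue squares and the filter of 71.3 on the mean signal as a dashed line. The DKK1 circle lies left of the control square for 17 probe sets, and right of it for those of Cbs and Glul.

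Asns gave bright signals on both probe sets. Probe set 1451095_at read 1889 in DKK1 cells against 11066 in control cells, 5.86-fold lower. Probe set 1433966_x_at read 2430 in DKK1 cells against 17425 in control cells, 7.17-fold lower. The gene difference was −2.69 with an SD of 0.21 between the probe sets, and 0.561% of measured genes had a lower difference. The suffix _x_at marks probe sets in which some probes can also bind other transcripts, but the _at probe set of Asns moved the same way. Enzymes and carriers around aspartate were not called on the deposited scaling. Of 9 listed genes 7 were measured and 0 called, with a median of 0.04 and a range of −0.47 to 0.29. That median was 0.38 with hybridisation control scaling and −0.53 with poly-A scaling, beside 0.47 and −0.53 for all genes. With poly-A scaling 2 of the 7 (28.6%) were called lower, near the 24.3% of all genes.

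Proline synthesis was read through Aldh18a1, which encodes the mitochondrial enzyme that reduces glutamate towards proline and ornithine. All 5 of its probe sets were lower in DKK1 cells. The brightest, 1437325_x_at, read 3682 in DKK1 cells against 11043 in control cells, a log2 difference of −1.58. Probe set 1435855_x_at read 1145 in DKK1 cells against 2585 in control cells, and 1415836_at, the only one without the _x_at suffix, read 261 in DKK1 cells against 607 in control cells, 2.33-fold lower. Probe set 1437333_x_at read 295 in DKK1 cells against 772 in control cells. The smallest difference was that of 1437620_x_at, with 264 in DKK1 cells against 398 in control cells, 1.51-fold lower and under the threshold on its own. The mean over the 5 was −1.16 (SD 0.38 between probe sets). That is close to the threshold, and the call ended when the arrays were scaled on the hybridisation controls (−0.80). Other proline genes were not called, at 0 of 5 measured, with a median of −0.55 and a range of −0.93 to 0.99. The lowest was Pycrl, a paralog of Pycr1 that also reduces pyrroline carboxylate, with 597 in DKK1 cells against 1151 in control cells. Its difference of −0.93 passed the threshold after median centring and with poly-A scaling, where it reached −1.55. The highest was Aldh4a1 of proline breakdown, with 115 in DKK1 cells against 49.7 in control cells, where the control signal is below the filter. Its difference of 0.99 was 0.58 with that signal raised to 71.3, and it passed the threshold with no pseudocount and with hybridisation control scaling. With poly-A scaling 2 of 3 measured genes of this list were lower, beside 24.3% of all genes.

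Cysteine synthesis from methionine was read through 1 usable gene. Cth, which encodes cystathionine gamma-lyase, the step that releases cysteine, had 1 probe set with 1788 in DKK1 cells against 4543 in control cells. That is 2.54-fold lower (−1.34), with no second probe set to set beside it. The call ended with hybridisation control scaling (−0.97). Cbs, which encodes the preceding enzyme, cystathionine beta-synthase, was dim. Probe set 1425623_a_at read 44.8 in DKK1 cells against 43.6 in control cells, and 1423844_s_at read 65.1 in DKK1 cells against 24.3 in control cells. Both arrays lay below the filter for both probe sets, so no fold is given. In the list of other methionine, transsulfuration and cysteine genes 2 of 12 measured were lower (16.7%) and 1 was higher (8.33%). Over all measured genes these shares were 6.91% and 11.7%. The list median was −0.48, beside 0.10 for all measured genes. With poly-A scaling 6 of 11 measured were lower (54.5%) and the median was −1.27, beside 24.3% and −0.53 for all genes. Gclm, the regulatory subunit of the enzyme that joins cysteine to glutamate for glutathione, was lower on both its probe sets (−2.07, SD 0.15). The first read 1209 in DKK1 cells against 5545 in control cells, and the second 330 in DKK1 cells against 1336 in control cells. Ahcy, which hydrolyses S-adenosylhomocysteine, was at the threshold (−1.06), and its call ended with hybridisation control scaling (−0.69). Csad, an enzyme that turns a cysteine product towards taurine, was the higher gene, with 2499 in DKK1 cells against 520 in control cells (2.23). The calls of Gclm and Csad held under all 11 alternatives.

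Bcat1, the cytosolic branched-chain aminotransferase, had a difference of −3.23 and the largest disagreement between probe sets of the measured enzymes (SD 1.93, n = 3 probe sets). Probe set 1450871_a_at read 72.9 in DKK1 cells against 3569 in control cells, 48.9-fold lower. Probe set 1455699_at read 93.0 in DKK1 cells against 297 in control cells, 3.19-fold lower. Probe set 1430111_a_at read 5.004 in DKK1 cells against 141 in control cells. The DKK1 signal of the last lies below the filter, and raising it to 71.3 gives at least 1.98-fold. All 3 probe sets had the same sign. With dim signals raised to the filter and no pseudocount, the gene was at least 6.76-fold lower on average of the logs. The size therefore depended on the probe set, from −5.32 with the brightest alone to −1.51 for the smallest, while the direction was shared. Its place beside Asns is not settled, since with dim signals raised to the filter Bcat1 was at −2.56 and Asns at −2.69, and with the larger pseudocount Bcat1 was at −2.48 and Asns at −2.66. Bcat2, the mitochondrial form, read 57.3 in DKK1 cells against 73.5 in control cells on its 1 probe set, whose mean signal was below the filter, and no difference is drawn from it.

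Branched-chain breakdown after the transamination step did not share that size of difference. Of 19 measured genes of the list 0 were lower and 1 was higher. Their median was 0.13 and their range −0.96 to 1.29. That median was −0.03 after median centring and −0.50 with poly-A scaling. The counts moved as well, with 7 lower and 0 higher with poly-A scaling and 0 lower and 3 higher with hybridisation control scaling. The lowest gene of the list, Hibch (−0.96), was called lower under 5 of 11 alternatives, among them no pseudocount, median centring and quantile normalization. The 1 higher gene was Bckdk, the kinase that inactivates the branched-chain keto acid dehydrogenase, with 938 in DKK1 cells against 507 in control cells on one probe set and 242 in DKK1 cells against 62.6 in control cells on the other. Its difference of 1.29 ended as a call with poly-A scaling (0.68) and with the brightest probe set alone (0.87).

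**Figure D2:**
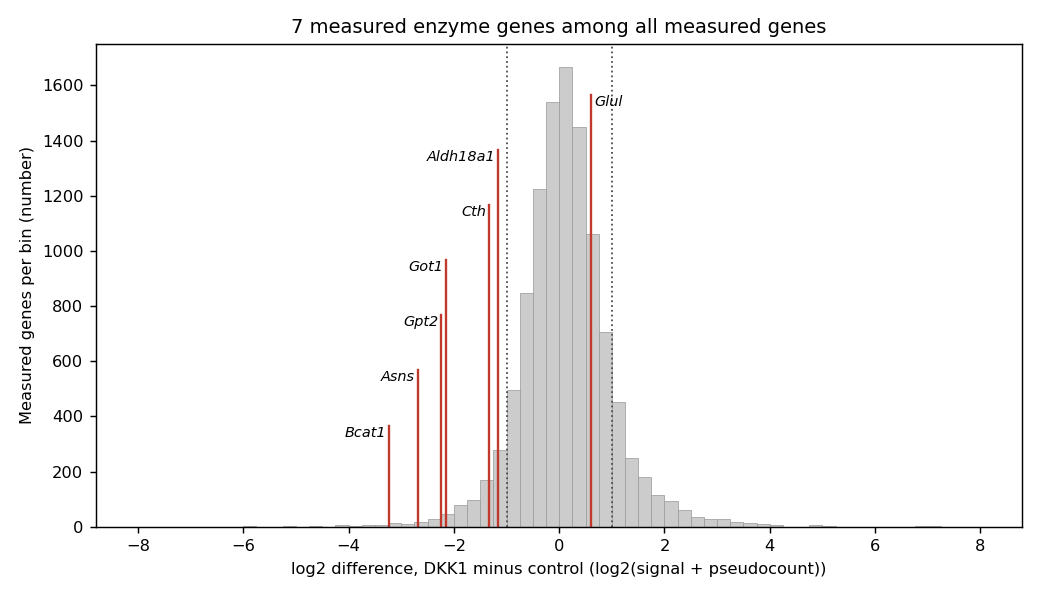
Histogram of the log2 differences, DKK1 minus control, of all 11058 measured genes in bins of 0.25, with red lines at the 7 measured enzyme genes (line height is only for the labels) and dotted lines at 2-fold. Of the 7 red lines 6 lie left of −1, and Glul lies at 0.61 between the dotted lines.

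Gpt2 and Got1 encode aminotransferases that pass nitrogen between glutamate and pyruvate or oxaloacetate, making alanine or aspartate. For Gpt2, the mitochondrial alanine aminotransferase, all 4 probe sets were lower in DKK1 cells. Probe set 1438385_s_at read 674 in DKK1 cells against 5217 in control cells, 7.74-fold lower, and 1455007_s_at read 389 in DKK1 cells against 2198 in control cells, 5.65-fold lower. Probe set 1434542_at read 85.01 in DKK1 cells against 586 in control cells, 6.90-fold lower. The fourth, 1439029_at, read 98.0 in DKK1 cells against 215 in control cells, 2.20-fold lower, and so stood apart from the other 3 in size. The gene difference was −2.24 (SD 0.84 between probe sets). Gpt, the cytosolic form, was not called at 0.07, with its 2 probe sets of opposite sign.

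Got1, the cytosolic aspartate aminotransferase of the malate-aspartate shuttle, had 1 probe set, with 381 in DKK1 cells against 1747 in control cells. That is 4.58-fold lower (−2.15). Its mitochondrial partner Got2 was not called, at −0.47 over 3 measured probe sets (SD 0.28). The brightest of these read 3653 in DKK1 cells against 6334 in control cells. The difference of Got1 minus that of Got2 was −1.68, and that of Gpt2 minus that of Gpt was −2.31, on the log2 scale, beside a pooled SD of 0.45 between probe sets of 1 gene over the array. In the first pair the cytosolic and in the second the mitochondrial form was the lower one. With poly-A scaling Got2 was called lower too (−1.04).

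Glul encodes glutamine synthetase, which joins ammonia to glutamate, and was the only measured enzyme of the 7 with a positive difference. Probe set 1426236_a_at read 3534 in DKK1 cells against 1833 in control cells, 1.93-fold higher. Probe set 1426235_a_at read 274 in DKK1 cells against 223 in control cells, 1.23-fold higher. The gene difference of 0.61 (SD 0.47 between probe sets) stayed under the threshold, and 77.2% of measured genes had a lower one. It was 0.97 with hybridisation control scaling and −0.0043 with poly-A scaling. Other genes of glutamine and glutamate use gave 0 calls among 6 measured, with a median of 0.03. That median was −0.13 after median centring and −0.57 with poly-A scaling, beside −0.06 and −0.53 for all genes.

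**Figure D3:**
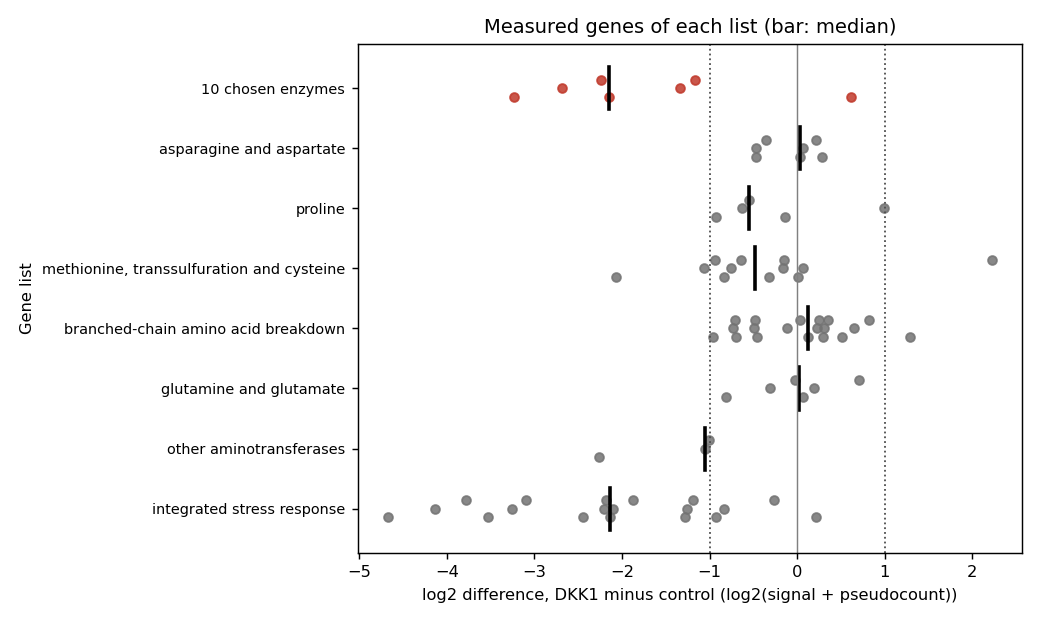
Log2 differences, DKK1 minus control, of the measured genes of the 10 chosen enzymes (red) and of 7 other lists (grey), with each list's median as a black bar and dotted lines at 2-fold; vertical spread within a list is only for legibility. The medians of the chosen enzymes (−2.15) and of the integrated stress response list (−2.13) lie left of −1. So does that of the 3 measured genes in the list of other aminotransferases (−1.05), while the remaining 5 lie between −0.55 and 0.13.

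The list of other aminotransferases held 7 genes that are neither among the 10 genes nor in the lists above. Of these 7, 3 were measured and all 3 were called lower. The aminotransferase genes Got2 (−0.47), Gpt (0.07) and Oat (−0.14) of the lists above were measured and not called. Psat1, the aminotransferase of serine synthesis, was lower on both probe sets (−2.27, SD 0.03), with 1867 in DKK1 cells against 8926 in control cells on the brighter. Kyat3, which transaminates kynurenine, was at the threshold (−1.05), with 155 in DKK1 cells against 339 in control cells. Kyat1, a related enzyme, passed the filter through the control array alone, with 41.8 in DKK1 cells against 101 in control cells on its 1 measured probe set. Raising the DKK1 signal to 71.3 gives at least 1.41-fold, which is no call, and with its dim probe sets included Kyat1 turned to 0.28. The calls of both ended with the larger pseudocount and with hybridisation control scaling. Over the 6 amino acid lists together, 5 of 52 measured genes were lower, 9.62%, and 2 were higher, 3.85%, with a median of −0.16 on the deposited scaling. Those shares stand beside 6.91% and 11.7% over all measured genes, so on the deposited scaling lower calls among neighbouring amino acid genes were near the background. With poly-A scaling 20 of 48 were lower, 41.7%, against 24.3% of all genes, and with hybridisation control scaling 2 of 52, 3.85%, against 3.48%.

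Genes of the integrated stress response, the ATF4 programme, gave 15 of 19 measured lower (78.9%) and 0 higher, with a median of −2.13. Over all measured genes 6.91% were lower and 11.7% higher, with a median of 0.10. The genes named from the stress list are Trib3, a pseudokinase gene (−4.13), Atf3, a transcription factor gene (−3.78), and Slc7a11, the cystine transporter gene. Both DKK1 signals of Slc7a11, 21.3 and 17.8, were below the filter, against 594 and 1372 in control cells, so it passed through the control array alone. It was at least 12.7-fold lower, and no order among the 3 genes is drawn. Atf4 itself was lower by 2 measured probe sets (−1.28, SD 0.06), and its call ended without the filter on dim probe sets (−0.89) and with hybridisation control scaling (−0.90). TGATGNAA was found before 5 of the 17 of these genes in the promoter table, against 3.91% of all genes in it. The 5 were Slc7a11, Atf3, Chac1, Nupr1 and Vldlr, of which Vldlr was not called (−0.26). This list was chosen as genes of the ATF4 programme, so its motif share is no independent support. It was also chosen with its lower signals known and is no independent support for the enzymes.

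**Figure D4:**
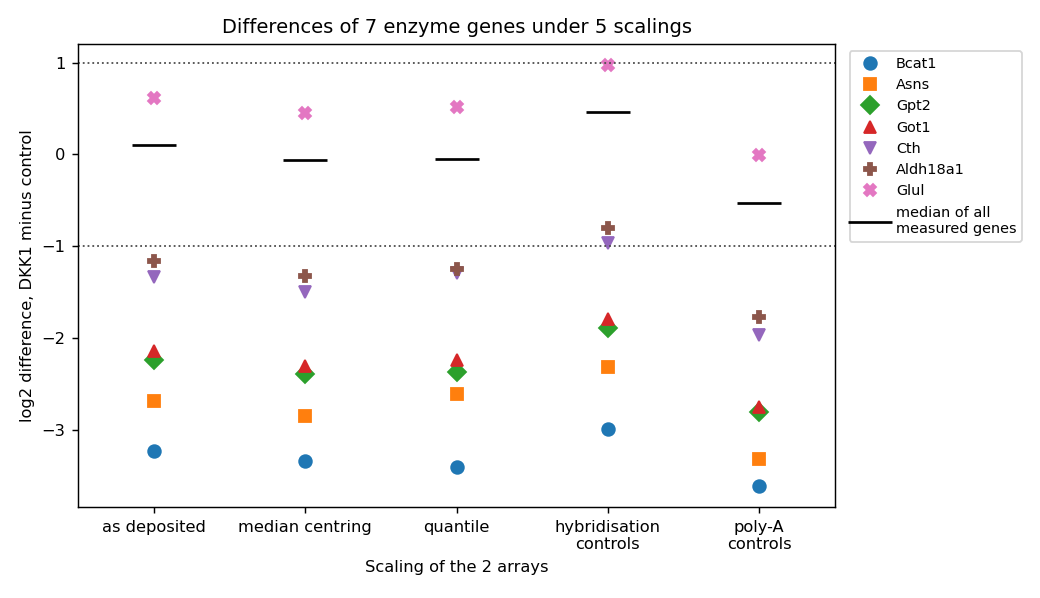
Log2 differences, DKK1 minus control, of the 7 measured enzyme genes (coloured symbols) under 5 scalings of the 2 arrays, with black bars at the median of all measured genes and dotted lines at 2-fold. Bcat1, Asns, Gpt2 and Got1 lie below −1 in every column, and Cth and Aldh18a1 lie above it in the column of the hybridisation controls.

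Technical values of the arrays moved beside these differences. The transgene is human, so no mouse probe set was used to check it. The 18 hybridisation control probe sets had a median log2 ratio of −0.37, and the 20 measured poly-A controls one of 0.64, DKK1 over control. The deposited scaling therefore lies between the scalings these controls give, under which the median of all genes was 0.47 and −0.53. The median of the 7 measured enzymes was −2.30 to −2.09 relative to that of all genes under the 11 alternatives run. The 3′ to 5′ ratio of Gapdh, a sign of RNA integrity, was 0.759 in DKK1 cells and 0.823 in control cells, and that of Actb was 1.25 in DKK1 cells and 1.61 in control cells. Osteoblast markers Col1a1, Col1a2 and Sparc were bright on both arrays, and Ibsp, Dmp1 and Pth1r were below the filter. Alpl (182 in DKK1 cells and 147 in control cells) and Sp7 (117 and 87.0) were above it. The leukocyte markers Csf1r (162 and 134) and Cd68 (127 and 86.4) were about as bright as Alpl and Sp7. The epithelial marker Epcam was brighter than Alpl and Sp7 on its _x_at probe set alone (264 and 226). Its other probe set read 2.63 in DKK1 cells and 5.18 in control cells, below the filter. Ptprc, the defining leukocyte marker, read 4.24 in DKK1 cells and 11.7 in control cells. Of 8 leukocyte, 5 endothelial and 5 epithelial markers 4, 1 and 3 passed the filter, of which Lyz2 was called higher and Laptm5 lower. Each of these passed through 1 array alone, Lyz2 with 136 in DKK1 cells and 14.5 in control cells, and Laptm5 with 44.2 in DKK1 cells and 113 in control cells. Both calls ended with dim signals raised to the filter, at least 1.91-fold and 1.59-fold. The part of these values in the enzyme differences was not tested. Culture density, medium and time of harvest are not given by group in the sources used here.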

How the data were processed

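Total RNA of 1 DKK1 and 1 control sample of MOS-J cells was hybridised to 1 Affymetrix mouse array each. The deposited intensity values are 1 linear signal per probe set, made with MAS5 according to the labels and per the submitters' processing notes, with version and settings not given in the sources used here. Computed from the values, both arrays had a mean of 500.0 once 2% of values was trimmed at each end. No detection calls were used.

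Symbols came from the platform annotation, and 34741 of 34945 single-symbol probe sets (64 control probe sets left out) matched RefSeq by gene ID. The pseudocount is the 25th percentile of all signals (16.6), and the filter of 71.3 is the median of the probe sets' mean signals. A gene takes the average difference of its measured probe sets. Python 3.11.15 with numpy 2.4.6 and pandas 2.3.3 was used, and calling and motif search were tested on simulated data. No p-value can be given with 1 array per group, and precision is limited by the number of arrays. The median signal was 78.6 on the DKK1 and 62.6 on the control array.

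Every member was named with every probe set, and from each list up to 3 called genes with the largest differences. Got2, Gpt, Pycrl, Aldh4a1 and Atf4 were added after their values were seen. Hibch and Oat are also named outside that rule, and Chac1, Nupr1 and Vldlr for their motif match. The members and lists were chosen with earlier results of these data known. Promoters are from RefSeq (GRCm38.p6). Alternatives covered the pseudocount, filter, scaling, gene summary and dim signals.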

Additional observations from a re-analysis of the deposited data

How the results depend on the processing

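Across 11 alternatives, 6 of the enzyme genes were called lower and 0 higher, except when the arrays were scaled on the hybridisation controls, where 4 were lower because Aldh18a1 (−0.80) and Cth (−0.97) ended under the threshold. The median of the measured enzymes was −2.15 as reported. It was −1.34 with no filter on dim probe sets, which brings in Bcat2 and Cbs, −1.38 with hybridisation control scaling, which brings in Bcat2, and −2.75 with poly-A control scaling. These moved by more than the pooled SD of 0.45 between probe sets. Asns ranged from −3.32 to −2.32, Bcat1 from −5.32 to −2.48, Gpt2 from −2.92 to −1.90 and Got1 from −2.75 to −1.79. Glul ranged from −0.0043 to 0.97 without a call. The share of higher among all calls was 62.9% as deposited, 47.4% after median centring, 49.9% after quantile normalization, 86.4% with hybridisation and 14.6% with poly-A controls. The share of all genes called lower was 24.3% with poly-A and 3.48% with hybridisation controls. No paired analysis was possible because each group has 1 array. Signal over background limits Bcat2, Cbs and the DKK1 signals of Bcat1.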
